A study of Homo sapiens with 10 samples.

Results

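CCL2 and 9 other genes for secreted chemokines and cytokines were followed by ribosome profiling in 2 pancreatic ductal adenocarcinoma cell lines, PANC-1 and CFPAC-1, with and without imidazole ketone erastin (IKE). The 10 genes were taken by Ensembl gene ID from a table of 20289 genes: CCL2 (ENSG00000108691), CCL20 (ENSG00000115009), CXCL1 (ENSG00000163739), CXCL2 (ENSG00000081041), CXCL3 (ENSG00000163734), CXCL5 (ENSG00000163735), CXCL8 (ENSG00000169429), IL6 (ENSG00000136244), LIF (ENSG00000128342) and IL18 (ENSG00000150782). CCL2 was picked for its large difference between the lines, so that difference is described here and not tested. IKE is an erastin derivative that blocks cystine uptake by system xc-, which lowers glutathione and can cause ferroptosis, a death by lipid peroxidation that depends on iron. The groups were PANC-1 with 1 µM IKE (4 libraries), PANC-1 with 0.1% DMSO (2 libraries), CFPAC-1 with 10 µM IKE (2 libraries) and CFPAC-1 with 0.1% DMSO (2 libraries). The treatment label gives 24 h but the extraction text speaks of consecutive days of treatment, so the length of exposure is not settled. The lines got different doses, so line and dose cannot be told apart in any comparison of the IKE effects. All groups held surviving cells only, collected after dead cells and debris were removed, and all lysates were made with cycloheximide, which stops ribosomes on mRNA.

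Chemokines are small secreted proteins that draw leukocytes along a gradient by binding receptors with 7 transmembrane helices. The CXC chemokines CXCL1, CXCL2, CXCL3, CXCL5 and CXCL8 carry an ELR motif before their first cysteines, bind CXCR2 and attract neutrophils, and CXCL8 also binds CXCR1. The CC chemokine CCL2 binds CCR2 and attracts monocytes, and CCL20 binds CCR6. IL6 and LIF are cytokines that signal through receptors sharing gp130 and activate STAT3, and both are known products of pancreatic tumours and their stroma. IL18 belongs to the IL-1 family, is made as a precursor and is cut by caspase-1. Many of these genes are induced by NF-κB.

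The 5 ELR CXC genes lie within 359 kb of chromosome 4 (73740569 to 74099195, GRCh38.p14). The other members lie apart from them and from each other, CCL2 on chromosome 17, CCL20 on chromosome 2, IL6 on chromosome 7, LIF on chromosome 22 and IL18 on chromosome 11. RefSeq promoter windows (GRCh38.p14, 250 bases before to 50 after the start) matched 7 of the 10 members by symbol, all but CCL2, LIF and IL18. The 120 bases before the start are printed for 6 of them because they hold a κB-type sequence that 5 of these genes share letter for letter. Capitals mark GGAATTTCC, and in IL6 GGATTTTCC, on the gene's own strand. The windows are CXCL8 at chr4:73740449-73740568 (+ strand), CXCL1 at chr4:73869273-73869392 (+ strand), CXCL5 at chr4:73998678-73998797 (- strand), CXCL3 at chr4:74038690-74038809 (- strand), CXCL2 at chr4:74099196-74099315 (- strand) and IL6 at chr7:22727080-22727199 (+ strand).
CXCL8: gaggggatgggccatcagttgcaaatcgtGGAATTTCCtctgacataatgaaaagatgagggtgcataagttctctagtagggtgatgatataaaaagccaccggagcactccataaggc
CXCL1: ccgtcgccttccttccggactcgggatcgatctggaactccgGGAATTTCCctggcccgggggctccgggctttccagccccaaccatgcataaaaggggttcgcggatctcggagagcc
CXCL5: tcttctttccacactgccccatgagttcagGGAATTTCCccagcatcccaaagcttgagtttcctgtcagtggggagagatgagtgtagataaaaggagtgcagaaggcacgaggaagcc
CXCL3: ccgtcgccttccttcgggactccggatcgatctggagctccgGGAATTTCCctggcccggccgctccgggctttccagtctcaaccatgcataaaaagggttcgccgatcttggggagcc
CXCL2: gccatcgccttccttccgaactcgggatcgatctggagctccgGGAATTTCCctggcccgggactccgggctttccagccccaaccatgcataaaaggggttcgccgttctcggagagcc
IL6: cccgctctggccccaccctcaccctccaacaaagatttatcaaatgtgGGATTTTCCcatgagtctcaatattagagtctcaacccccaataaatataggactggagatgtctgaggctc
GGAATTTCC stood at -91 to -83 from the start in CXCL8, -90 to -82 in CXCL5, -78 to -70 in CXCL1 and CXCL3, and -77 to -69 in CXCL2. The looser GGANTTTCC, which includes GGAATTTCC, was also met in IL6 at -72 to -64. Neither was met in the window of CCL20. No other κB-type sequence was searched for, so CCL20 may hold one of another form. Of 35116 RefSeq promoter windows of the same length, 162 (0.461%) held GGAATTTCC and 577 (1.64%) held GGANTTTCC, both strands searched. The windows of CXCL1 and CXCL3 were 82.5% identical, those of CXCL2 and CXCL3 73.8% and those of CXCL1 and CXCL2 71.9%, so their matches are not independent, while every other pair was 45.2 to 55.4% identical. A match of letters is a description of the window and not evidence of binding in these cells.

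Values are FPKM, footprint fragments scaled by gene length and by library size. A footprint level reflects mRNA abundance and translation together, and in bulk libraries a smaller number of expressing cells and less RNA per cell cannot be told apart. Absolute depth is unknown. Relative depth, estimated from the steps between low FPKM values with CFPAC-1 DMSO replicate 1 as 1.0, was 0.21 to 0.875 in the PANC-1 libraries and 0.919 to 1.17 in the CFPAC-1 libraries. The least settled value was that of PANC-1 IKE replicate 4, which ran between 0.21 and 2.54 under other settings of the estimate. PANC-1 IKE replicates 2 and 4 stood apart, with 16.2% and 23.1% of the summed FPKM in their top 10 genes, against 8.51% to 12.2% in the other 8 libraries. The median spread of a gene between replicates was larger in PANC-1 than in CFPAC-1, with residual SDs of 0.48 and 0.18 on the log2 scale. The markers of the labelled tumour type were not checked, because the table pairs no ID with a name. Tests used limma on log2(FPKM + 1) over the 13125 genes averaging 1 FPKM or more, with a call at a Benjamini-Hochberg adjusted p under 0.05. Of the 10 members, 8 passed this minimum. CCL20 and CXCL2 did not and have no test, and IL6, CXCL3 and CXCL5, with means of 0.143, 0.172 and 0.535 FPKM over the 6 PANC-1 libraries, passed only through their CFPAC-1 levels, so counts over the tested members are descriptions.

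The lines differed in which chemokine led. CCL2 made up nearly all of the summed footprint level of the 10 genes in PANC-1 and almost none of it in CFPAC-1, where CXCL5, LIF, IL18 and CXCL1 dominated. In PANC-1, CCL2 took 90.6% to 95.1% of the sum with IKE and 95.1% and 96.5% in DMSO. In CFPAC-1 it took 0.439% and 0.515% with IKE and 0% and 0.322% in DMSO. CXCL5 took 33.1% and 37.7% of the sum in CFPAC-1 with IKE and 51.2% and 49.2% in CFPAC-1 DMSO. The sum of the other 9 genes was also lower in PANC-1, at 40.96 to 84.43 FPKM with IKE and 78.45 and 57.97 FPKM in DMSO. In CFPAC-1 that sum was 426.8 and 483.02 FPKM with IKE and 511.51 and 507.9 FPKM in DMSO.

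**Figure D1:**
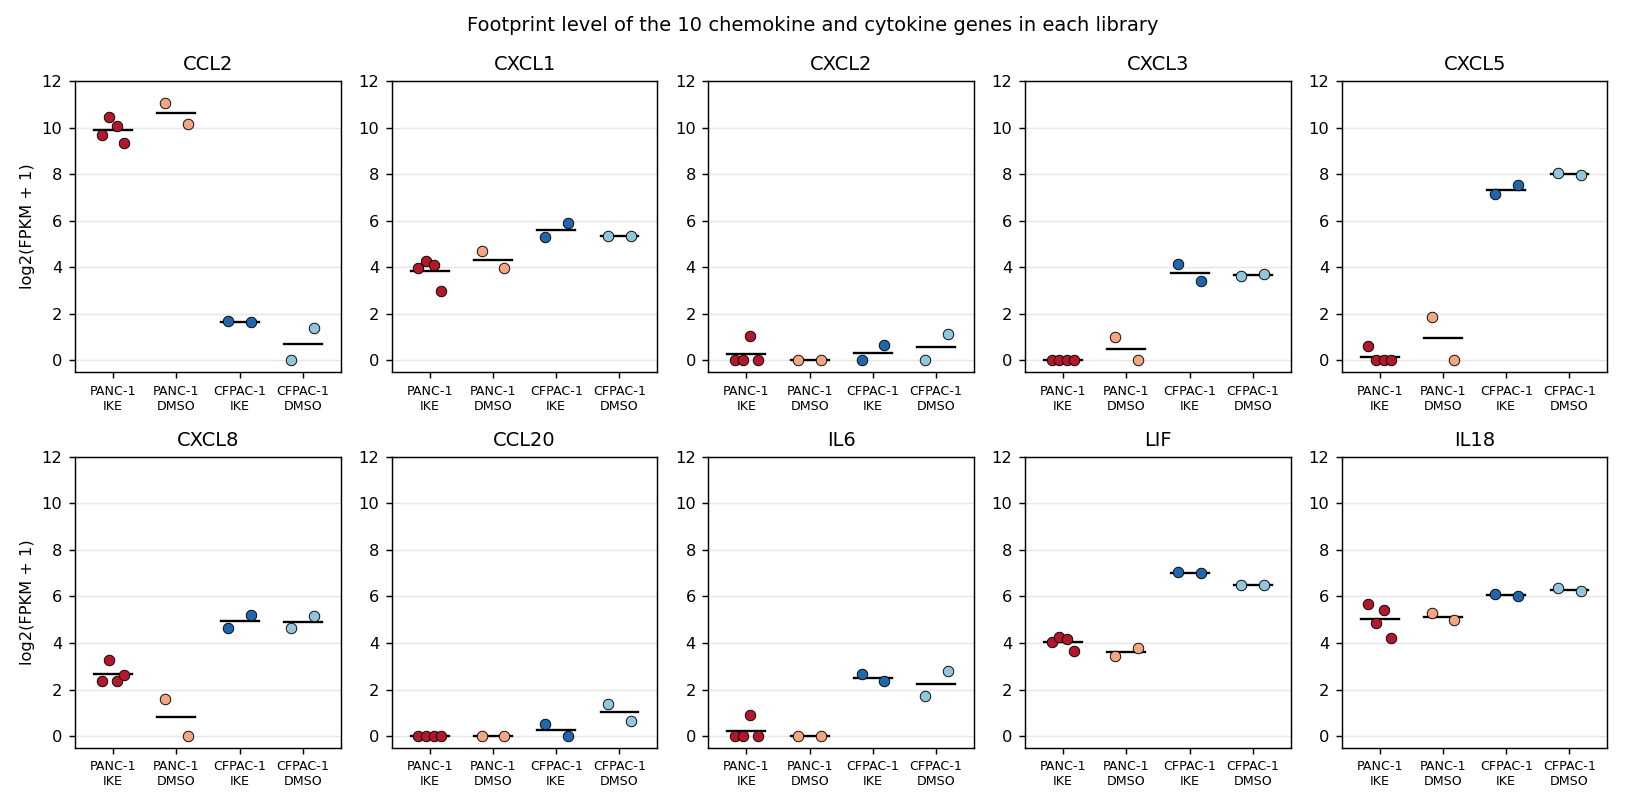
Footprint level of each gene as log2(FPKM + 1) on the vertical axis, 1 point per library and 1 bar per group mean, for PANC-1 with IKE, PANC-1 DMSO, CFPAC-1 with IKE and CFPAC-1 DMSO. CCL2 lies above 644 FPKM in every PANC-1 library and at 2.21 FPKM or less in every CFPAC-1 library, while CXCL5, CXCL8, LIF, CXCL3, CXCL1, IL6 and IL18 lie lower in all 6 PANC-1 libraries than in all 4 CFPAC-1 libraries.

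CCL2, the monocyte attractant, had 815.82, 1397.9, 1067.31 and 644.09 FPKM in PANC-1 with IKE and 2146.89 and 1134.08 FPKM in PANC-1 DMSO. In CFPAC-1 it had 2.21 and 2.13 FPKM with IKE and 0 and 1.64 FPKM in DMSO. All PANC-1 libraries were far above all CFPAC-1 libraries, with no overlap. By level, CCL2 ranked 93 and 159 among all genes of the PANC-1 DMSO libraries and between 139 and 267 in the PANC-1 IKE libraries. In the CFPAC-1 libraries it ranked between 11548 and 11944 or was listed at 0. The log2 difference in DMSO was 9.91 ± 0.50 (SE, 2 against 2 libraries), PANC-1 minus CFPAC-1. With 1 CFPAC-1 DMSO library at 0, its size depends on the pseudocount, being 11.87 with 0.1 FPKM added and 8.09 with 5 FPKM added.

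**Figure D2:**
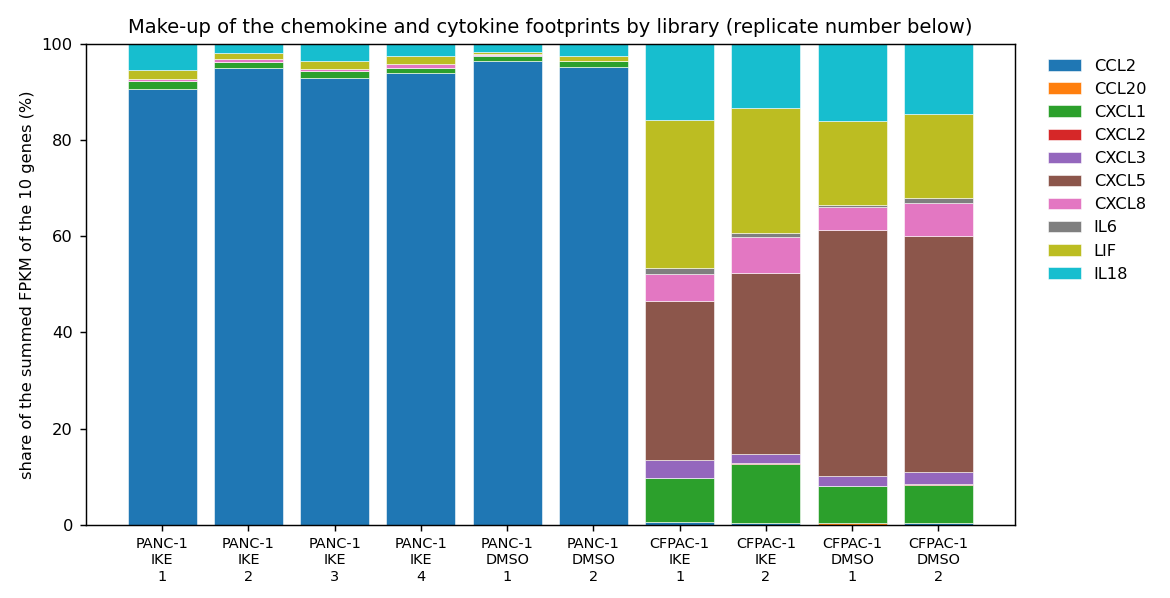
Share of the summed FPKM of the 10 genes in percent (vertical axis) that each gene takes in each of the 10 libraries, PANC-1 on the left and CFPAC-1 on the right, with the replicate number under each bar. CCL2 fills at least 90.6% of every PANC-1 bar, and CXCL5 fills 33.1% to 51.2% of every CFPAC-1 bar.

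Of the other 7 tested genes, 5 were lower in PANC-1 than in CFPAC-1 in DMSO, CXCL3, CXCL5, CXCL8, IL6 and LIF, and none was higher. Over all tested genes 33.6% were called in this comparison, 18.5% lower and 15.1% higher. An unadjusted p under 0.05 was met by all 7 of these members and by 43.3% of all tested genes. The median log2 difference of these 7 was -2.89, or -3.02 without IL6, whose PANC-1 DMSO libraries are both listed at 0, beside -0.03 over all tested genes. The 5 calls were made under all alternatives in which the gene was tested (IL6 drops out where an average of 5 FPKM is asked for). CXCL3, CXCL5 and IL6 entered the test only through their level in CFPAC-1 and so had to differ, while CXCL8 and LIF met the minimum in both lines. The genes were also chosen with results of these data known, so the count and the median describe them and support nothing.

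Among the CXCR2 ligands, CXCL5 stood furthest apart. It had 0.52 FPKM in PANC-1 IKE replicate 1 and was listed at 0 in the other 3 IKE libraries, and it had 2.69 and 0 FPKM in PANC-1 DMSO. CFPAC-1 had 141.92 and 182.71 FPKM with IKE and 261.74 and 250.57 FPKM in DMSO, so that CXCL5 ranked 928 and 975 among all genes of the CFPAC-1 DMSO libraries. The log2 difference in DMSO was -7.06 ± 0.53 (limma adjusted p = 7.18e-06). The minimum level admitted CXCL5 through CFPAC-1, so this p is no support for a difference. The log2 difference was -8.92 with 0.1 FPKM added and -5.40 with 5 FPKM added.

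CXCL8, the chemokine also known as interleukin 8, had 4.14, 8.66, 4.14 and 5.1 FPKM in PANC-1 with IKE and 2.04 and 0 FPKM in PANC-1 DMSO. CFPAC-1 had 23.83 and 36.15 FPKM with IKE and 23.83 and 34.52 FPKM in DMSO. Every PANC-1 library was below every CFPAC-1 library, and the log2 difference in DMSO was -4.09 ± 0.54 (limma adjusted p = 0.00025), moving to -5.96 and -2.51 with 0.1 and 5 FPKM added.

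CXCL3 was listed at 0 in all 4 PANC-1 IKE libraries and had 1.03 and 0 FPKM in PANC-1 DMSO, against 16.49 and 9.59 FPKM in CFPAC-1 with IKE and 11.33 and 12.03 FPKM in CFPAC-1 DMSO. The log2 difference in DMSO was -3.15 ± 0.42 (limma adjusted p = 0.000296), and -5.13 and -1.60 with 0.1 and 5 FPKM added. CXCL3 too was admitted to the test through CFPAC-1, so this p is no support for a difference. CXCL1 was the one CXCR2 ligand with a clear level in both lines. It had 14.87, 18.15, 16.29 and 6.87 FPKM in PANC-1 with IKE and 24.65 and 14.72 FPKM in PANC-1 DMSO, against 38.63 and 59.18 FPKM in CFPAC-1 with IKE and 39.37 and 40.02 FPKM in CFPAC-1 DMSO. No PANC-1 library reached the lowest CFPAC-1 library, but the log2 difference in DMSO of -1.02 ± 0.45 missed the threshold (limma adjusted p = 0.108), and it passed in 2 of 20 alternatives.

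CXCL2 and CCL20 were at the edge of detection. CXCL2 had 1.08 FPKM in PANC-1 IKE replicate 3 and was listed at 0 in the other 5 PANC-1 libraries, against 0 and 0.58 FPKM in CFPAC-1 with IKE and 0 and 1.21 FPKM in CFPAC-1 DMSO. CCL20, which attracts CCR6-bearing lymphocytes and dendritic cells, was listed at 0 in all 6 PANC-1 libraries, against 0.45 and 0 FPKM in CFPAC-1 with IKE and 1.58 and 0.59 FPKM in CFPAC-1 DMSO. The lines overlapped for both genes. CXCL1, CXCL2 and CXCL3 are close paralogs and the authors' handling of footprints shared by them is not stated here, which leaves their split uncertain.

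Among the cytokines, LIF had 15.54, 17.85, 17.13 and 11.44 FPKM in PANC-1 with IKE and 10 and 12.63 FPKM in PANC-1 DMSO, against 131.94 and 126.32 FPKM in CFPAC-1 with IKE and 89.92 and 89.25 FPKM in CFPAC-1 DMSO. All PANC-1 libraries were lower, and the log2 difference in DMSO was -2.89 ± 0.29 (limma adjusted p = 3.8e-05). IL6 had 0.86 FPKM in PANC-1 IKE replicate 3 and was listed at 0 in the other 5 PANC-1 libraries, against 5.33 and 4.09 FPKM in CFPAC-1 with IKE and 2.28 and 5.97 FPKM in CFPAC-1 DMSO. IL6 was low in both lines, and its difference in DMSO passed (limma adjusted p = 0.00516), with no fold given against a group listed at 0. The minimum level admitted IL6 through CFPAC-1 as well, so its call supports nothing. IL18 had 49.36, 27.96, 41.8 and 17.55 FPKM in PANC-1 with IKE and 38.04 and 30.62 FPKM in PANC-1 DMSO, against 68.21 and 64.4 FPKM in CFPAC-1 with IKE and 81.46 and 73.74 FPKM in CFPAC-1 DMSO. All PANC-1 libraries were again lower, with a log2 difference for IL18 of -1.16 ± 0.42 in DMSO that missed the threshold (limma adjusted p = 0.0575) and passed in 7 of 20 alternatives, one of them the fit of the DMSO libraries alone (limma adjusted p = 0.0255), in which 32% of all genes were called.

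**Figure D3:**
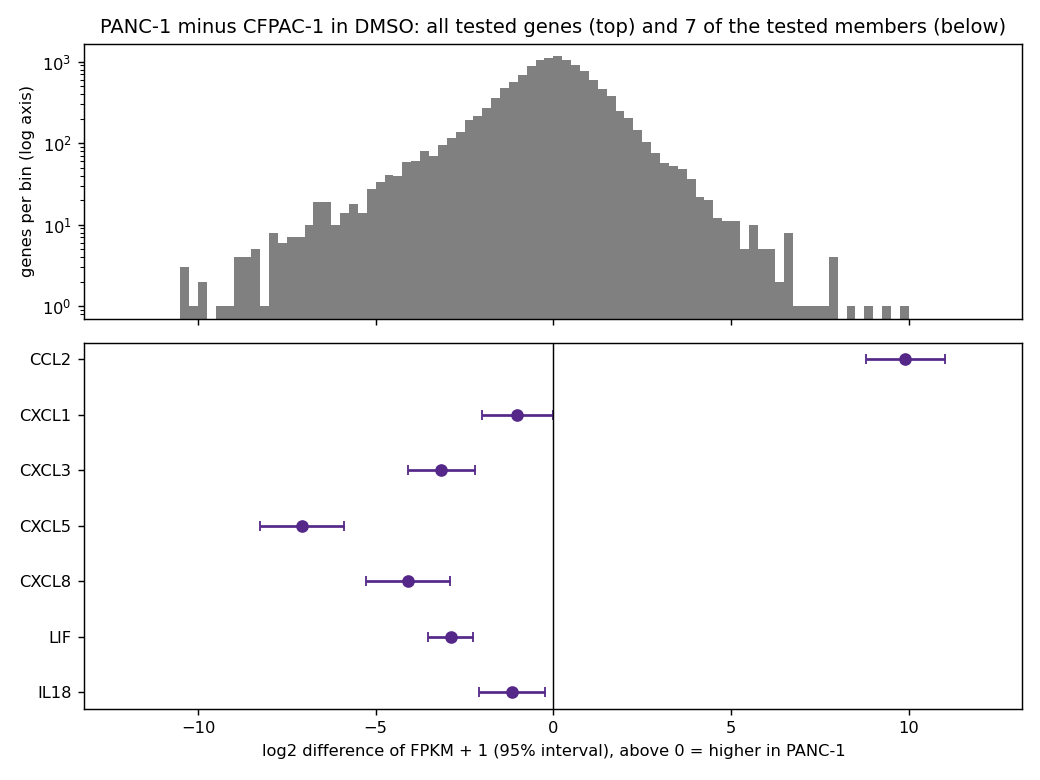
Top, number of genes (log axis) by log2 difference of FPKM + 1, PANC-1 minus CFPAC-1 in DMSO, over the 13125 tested genes. Below, the same difference with its 95% interval for 7 members, values above 0 being higher in PANC-1, with CCL2 at 9.91 and CXCL5 at -7.06 furthest from 0. CCL2 was picked for this difference, so its interval, which comes from the limma model of all 4 groups, is a description and no test. IL6 is left out because PANC-1 DMSO is listed at 0.

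Over all libraries, 7 members (CXCL1, CXCL3, CXCL5, CXCL8, IL6, LIF and IL18) lay lower in every PANC-1 library than in every CFPAC-1 library, and CCL2 lay higher. Among all tested genes 25% lay lower in this way and 19.4% higher. CXCL3, CXCL5 and IL6 passed the minimum level only through CFPAC-1, so a lower level in PANC-1 was built in for them. CCL2 was picked for its difference. The count is thus a description and no result about the members. The order of mean levels within PANC-1 DMSO was CCL2 (1640.48 ± 716.165 FPKM), IL18 (34.33 ± 5.25), CXCL1 (19.685 ± 7.02) and LIF (11.315 ± 1.86), with all others at or below 1.345 FPKM (SD, n = 2). The libraries of these 4 genes did not overlap, with 2 libraries behind each. In CFPAC-1 DMSO the order was CXCL5 (256.155 ± 7.90 FPKM), LIF (89.585 ± 0.474), IL18 (77.6 ± 5.46), CXCL1 (39.695 ± 0.460), CXCL8 (29.175 ± 7.56), CXCL3 (11.68 ± 0.495) and IL6 (4.125 ± 2.61), followed by CCL20, CCL2 and CXCL2 (SD, n = 2). None of the first 7 overlapped its neighbour. These are levels per length. The length used for each gene is not stated and the split of CXCL1, CXCL2 and CXCL3 is uncertain, so the order between genes is tentative.

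With IKE, no member was called in either line by limma. In PANC-1, 0 of 8 tested members were called, beside 0.0152% (2 genes) of all tested genes. Their median log2 change was -0.30, against -0.02 over all genes, with 3 values above 0 and 5 below. CXCL3 and IL6, each with a group listed at 0, are among these values, and without them the median was also -0.30. An unadjusted p under 0.05 was met by 1 member, CXCL8, and by 17.6% of all tested genes. In CFPAC-1, 0 of 8 were called, beside 0.00762% (1 gene) of all tested genes, and 1.48% of all genes and 0 members had an unadjusted p under 0.05. Their median log2 change there was 0.18, against -0.01 over all genes, with 6 values above 0 and 2 below.

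CXCL8 had the largest IKE value among the members in PANC-1. As given above, all 4 IKE libraries were above both DMSO libraries, which no other member showed in PANC-1, while 10.2% of all tested genes were higher without overlap and 12.2% lower. The log2 fold change was 1.85 ± 0.47 (95% interval 0.81 to 2.88, 4 against 2 libraries), and it missed the threshold (limma adjusted p = 0.141, with 0.0978 to 0.445 over 20 alternatives). It was 3.53 and 0.80 with 0.1 and 5 FPKM added, 2.65 without PANC-1 DMSO replicate 1, 1.05 without PANC-1 DMSO replicate 2 and 1.56 without PANC-1 IKE replicates 2 and 4. The PANC-1 libraries alone gave limma adjusted p = 0.438, with 0.00762% of all genes called and 11% at an unadjusted p under 0.05. The same DMSO libraries enter the comparison between the lines, so the values are not independent.

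The CXCL8 values in PANC-1 are low, and with absolute depth unknown only ratios of their fragment numbers can be given. Taken as FPKM times relative depth and set against PANC-1 DMSO replicate 1, PANC-1 IKE replicates 1 to 4 held 3.50, 2.00, 1.99 and 1.03 times its fragments, and PANC-1 DMSO replicate 2 held 0. With depth taken from the low quantile of sparse genes instead, the IKE values were 3.86, 2.37, 2.27 and 1.54. These ratios share the uncertainty of the depth estimate, most of all for replicate 4.

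**Figure D4:**
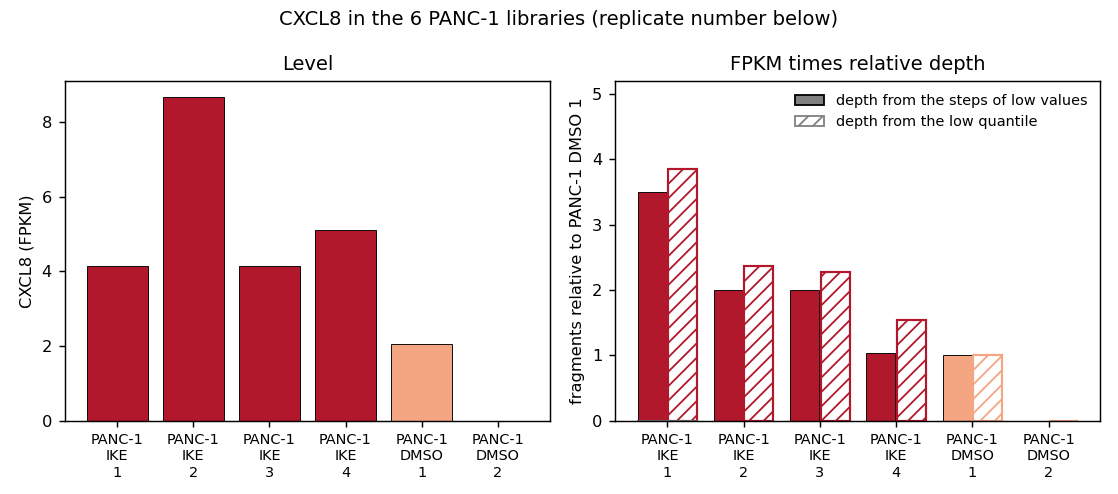
Left, CXCL8 in FPKM in the 4 PANC-1 IKE and 2 PANC-1 DMSO libraries. Right, FPKM times relative depth, set to 1 in PANC-1 DMSO replicate 1, by 2 depth estimates (filled bars, steps of low values; hatched bars, low quantile), with PANC-1 IKE replicate 4 the least settled. All 4 IKE libraries lie above both DMSO libraries in FPKM, between 4.14 and 8.66 against 2.04 and 0.

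CCL2 in PANC-1 had a log2 fold change with IKE of -0.73 ± 0.43 (95% interval -1.69 to 0.24), with the groups overlapping (limma adjusted p = 0.408, and 0.304 to 0.845 over the alternatives). It was -0.27 without PANC-1 DMSO replicate 1 and -1.19 without PANC-1 DMSO replicate 2. The interval spans 0 and does not show that the level was equal. LIF had 0.41 ± 0.25 with limma adjusted p = 0.412, CXCL5 -0.79 ± 0.46 with 0.397, CXCL1 -0.49 ± 0.39 with 0.535 and IL18 -0.10 ± 0.37 with 0.918, the groups overlapping for each. CXCL3 was listed at 0 in all IKE libraries (limma adjusted p = 0.495) and IL6 in both DMSO libraries (limma adjusted p = 0.816), so neither has a fold. IL18 turned to 0.40 without PANC-1 IKE replicates 2 and 4. CXCL5 turned to 0.15 without PANC-1 DMSO replicate 1 and was -1.73 without PANC-1 DMSO replicate 2.

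In CFPAC-1, where replicates lay close, 5 members had IKE and DMSO libraries that did not overlap. CCL2 and LIF were above, and CXCL5, IL18 and CCL20 below. CCL20 was at the edge of detection and was not tested, so shares over the tested genes do not cover it. Over all tested genes 20.2% were above and 22.3% below in this way. For LIF, the 4 libraries named above gave a log2 fold change of 0.52 ± 0.29 (95% interval -0.11 to 1.16, limma adjusted p = 1). For CXCL5 the log2 fold change was -0.67 ± 0.53 (limma adjusted p = 1), for CCL2 0.96 ± 0.50 and for IL18 -0.22 ± 0.42, both with limma adjusted p = 1. CXCL1, CXCL3, CXCL8 and IL6 overlapped and had log2 values between 0.03 and 0.26, all with limma adjusted p = 1.

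For 7 of the 8 tested members, all but CCL2, the SE in CFPAC-1 was smaller without the PANC-1 libraries than in the shared model. In PANC-1 it was larger without the CFPAC-1 libraries for 5 of 8, and smaller for CCL2, CXCL3 and IL6. Fitted to the 4 CFPAC-1 libraries without PANC-1, LIF had an SE of 0.07 and an unadjusted p = 0.00253 in limma, with an adjusted p = 0.328. CXCL5 had an SE of 0.15 and an unadjusted p = 0.0137 in limma, with an adjusted p = 0.356. In that fit 12.1% of all tested genes had an unadjusted p under 0.05 and 0% were called. The 0.96 of CCL2 in CFPAC-1 rests on 1.72 and 1.38 times the fragments of DMSO replicate 2 in the IKE libraries, with DMSO replicate 1 at 0. It was 0.26 without DMSO replicate 1, 1.66 without DMSO replicate 2, and 2.44 and 0.32 with 0.1 and 5 FPKM added.

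**Figure D5:**
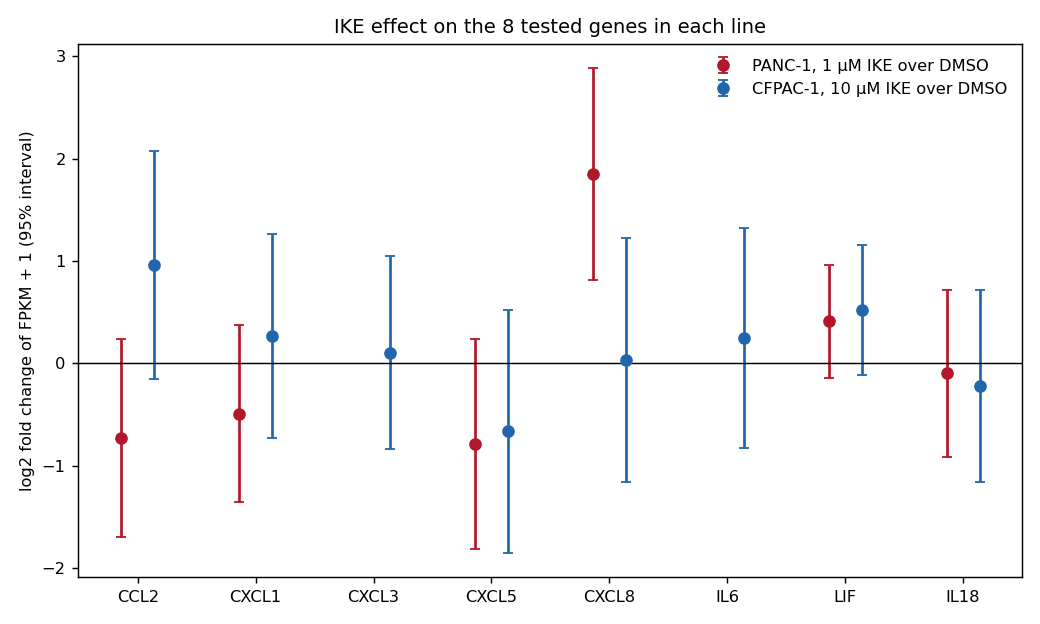
Log2 fold change of FPKM + 1 with IKE over DMSO (vertical axis, points with 95% intervals from limma) for the 8 tested genes, PANC-1 at 1 µM in red and CFPAC-1 at 10 µM in blue. CXCL8 in PANC-1 (1.85) is the one value whose interval leaves out 0, and CXCL3 and IL6 in PANC-1 are left out because a group is listed at 0.

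Some proportions between members also did not overlap in CFPAC-1. LIF over IL18 was 1.93 and 1.96 with IKE and 1.10 and 1.21 in DMSO, and CXCL5 over CXCL1 was 3.67 and 3.09 with IKE and 6.65 and 6.26 in DMSO. LIF over IL18 in PANC-1 was 0.315 to 0.652 with IKE and 0.263 and 0.412 in DMSO, which overlap. Among the 21 pairs of the 7 members above 0 in every CFPAC-1 library, 8 (38.1%) had ratios that did not overlap between IKE and DMSO, beside 42.4% of all pairs of tested genes above 0 in those libraries. These 2 ratios were singled out after their values were seen.

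The difference of the IKE effects, PANC-1 minus CFPAC-1, was called for 0 of 8 members, beside 0.0305% (4 genes) of all tested genes. CXCL8 had 1.82 ± 0.71 and CCL2 had -1.69 ± 0.66 on the log2 scale, both with an unadjusted p of 0.028 and a limma adjusted p = 0.557. Leaving out 1 library gave 1.01 without PANC-1 DMSO replicate 2 to 2.62 without PANC-1 DMSO replicate 1 for CXCL8. For CCL2 it gave -2.39 without CFPAC-1 DMSO replicate 2 to -0.99 without CFPAC-1 DMSO replicate 1. With 0.1 and 5 FPKM added, the values were 3.50 and 0.78 for CXCL8 and -3.17 and -1.04 for CCL2. Over all tested genes 8.41% had an unadjusted p under 0.05. The other 6 tested members had adjusted p-values of 0.756 to 0.998 in limma. The differing doses enter this comparison with the lines.

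The IDs with log2 values most like those of CCL2 over the 10 libraries, by Pearson's r, were ENSG00000173905 and ENSG00000167641. No r is printed for them because the 2 lines form separate clusters. ENSG00000167641 had 859.04, 943.57, 699.79 and 672.8 FPKM in PANC-1 with IKE and 1577.25 and 870.25 FPKM in PANC-1 DMSO, against 1.14 and 2.68 FPKM in CFPAC-1 with IKE and 0.65 and 2.18 FPKM in CFPAC-1 DMSO. Within the 6 PANC-1 libraries the most alike were ENSG00000170632 (r = 0.9989, rho = 1, r = 0.998 without the 2 libraries farthest from the median) and ENSG00000134243 (r = 0.9955, rho = 0.9429, r = 0.9774 without those). They were picked from all tested genes as the highest, and the libraries share depth and treatment differences, so no p is given.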

How the data were processed

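Ribosome footprints were measured in 10 libraries, which the labels call biological replicates; nothing says they came from separate cultures, so p-values measure the spread between these libraries. Per the file headers, the authors deposited the values as FPKM, with a column for each library. Build GRCh38 and the tools STAR, RSEM, fastp, DESeq2 and Bowtie2 2.2.8 are listed in the submitters' processing notes, without saying what each was used for; the annotation, the strand setting and the handling of shared footprints are not stated. The gene names of the 10 members came with the choice of members; 0 of 20289 IDs matched the reference table of names, so gene lists and cell type markers were not tested.

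A single limma 3.58.1 model (R 4.3.3, mean-variance trend, 6 residual degrees of freedom) held the 4 groups on log2(FPKM + 1), with a mean of at least 1 FPKM required and Benjamini-Hochberg adjustment over the 13125 genes tested. A log2 value on this scale understates changes of low genes. Named genes were the 10 members and the IDs most like CCL2. The members and lists were chosen with earlier results of these data known. The same-numbered libraries of a line did not deviate together (r = -0.169 and -0.163 in PANC-1, 0.049 in CFPAC-1). Replicate numbers were therefore not taken as pairs. In a group of 2 libraries the deviations mirror each other, so the r of CFPAC-1 is the same for both numbers. The check is weak and cannot exclude pairing.

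Relative depth was the mode of FPKM ratios over genes listed at 0 in at least 5 libraries. About 7 versions of this estimate were tried, and its settings and those of the simulation were adjusted after outputs were seen, so neither its passing test on simulated data nor its closeness to earlier results is evidence of accuracy. Promoters came from RefSeq and were aligned with Biopython 1.88 in Python 3.11.15. Alternatives were the pseudocount, the filter, quantile and median scaling, library weights, fits of the compared groups alone, a replicate block and leaving libraries out.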

Additional observations from a re-analysis of the deposited data

Results flagged for a closer look

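In 3 of the 8 groups of 4 libraries that could be checked, all in PANC-1 with IKE, 1 library was above 0 beside 3 listed at 0. CXCL2 had 1.08 FPKM and IL6 had 0.86 FPKM in replicate 3. CXCL5 had 0.52 FPKM in replicate 1. Such a group passes Dixon's test whatever the size of its value above 0, so neither these results nor the rate of about 1 in 20 groups by chance says anything about the libraries.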

How the results depend on the processing

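The calls of CXCL3, CXCL5, CXCL8, IL6 and LIF between the lines in DMSO were made under all alternatives in which the gene was tested. For CXCL3, CXCL5 and IL6, which entered the test only through CFPAC-1, a difference was built in, so their repeated calls support nothing. The calls of CXCL8 rest on a PANC-1 DMSO group near 0, at 2.04 and 0 FPKM. No IKE effect or difference of effects on a member was called under any alternative. Of 628 values of members under the alternatives, 583 stayed the same, 34 changed direction and 9 passed the threshold. The other 2, both of CCL2 between the lines (11.87 and 8.09), moved with the pseudocount. Staying the same meant keeping direction and side of the threshold. For 18 values of CCL2 between the lines, which has no test, it meant moving by less than the spread of the CCL2 DMSO values.

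Counts of called genes moved more. With 0.1 FPKM added they were 5 for IKE in PANC-1 and 2 in CFPAC-1, against 2 and 1 as reported; with 5 FPKM added, 1 in PANC-1 and 1 for the difference of effects, against 4 as reported. Without the filter they were 7, 4 and 2. Library weights gave 0 in PANC-1 and 54 in CFPAC-1, the compared groups alone 1 and 0, and without PANC-1 IKE replicates 2 and 4 they were 1, 2 and 1 for PANC-1, CFPAC-1 and the difference. With the replicate block, which the numbers do not justify as pairs, they were 0, 0 and 0, with 4602 between the lines, against 4410. Leaving out 1 library gave 0 to 3 in PANC-1, 0 to 4 in CFPAC-1, 0 to 4 for the difference and 2495 to 5308 between the lines (2495 and 2519 without CFPAC-1 DMSO replicate 1 or 2). The cause was not tested. Quantile normalization moved the all-gene median between the lines to 0.10.

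Directions turned, or values came to 0, for both small and larger values. The difference of effects was 0.49 for IL6 with 0.1 FPKM added, 0.032 with quantile normalization, 0.26 with library weights and 0.20 without PANC-1 IKE replicates 2 and 4, 0.38 for CXCL5 with 5 FPKM added and 0.026 for CXCL5 with the replicate block or without those replicates, and 0.0058 for LIF with the block. IL18 in PANC-1 was 0.18 with library weights, 0.12 with the block and 0.40 without replicates 2 and 4, and IL6 in PANC-1 was 0 with the block. Leaving out 1 library gave, for IKE in CFPAC-1, -0.26 to 0.32 for CXCL8, -0.30 to 0.79 for IL6, -0.26 to 0.46 for CXCL3 and -0.038 to 0.56 for CXCL1; for IKE in PANC-1, -1.02 to 0 for CXCL3, -1.73 to 0.15 for CXCL5 (-0.79 as reported), -0.31 to 0.18 for IL18 and 0 to 0.30 for IL6; and for the difference, -0.57 to 0.52 for IL6, -1.07 to 0.82 for CXCL5, -0.27 to 0.044 for LIF and -0.083 to 0.40 for IL18. CXCL2, CCL20, CXCL3, IL6 and CXCL5 lay at or near 0 in PANC-1, where their changes could not be resolved. The values of CXCL3 and IL6 that involve IKE in PANC-1 show only how the model value moved. They are not folds, because a group is listed at 0. Of the 4 groups, 3 held 2 libraries.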
